A study of Mus musculus with 16 samples.

Results

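The 10 genes described here encode the proteins that build elastic fibres: elastin (Eln), fibrillins 1 and 2 (Fbn1, Fbn2), the microfibril-associated proteins Mfap2 and Mfap4, fibulins 5 and 4 (Fbln5, Efemp2), and the lysyl oxidases Lox, Loxl1 and Loxl2. They were chosen by name, as the array features whose platform gene symbol is in that list. The list was drawn up with earlier results of these data known, so shares over all genes are given beside its counts as a description only. All 10 were measured, among 20166 named genes tested, by 17 of the 62976 features of the array, and all 17 features passed the filter on dim features. The study measured RNA of homogenised lung tissue from mouse pups at postnatal day 3, on 1 one-colour array per sample. The 4 groups of 4 arrays were Fgf10+/- pups in hyperoxia, Fgf10+/- pups in normoxia, wild-type pups in hyperoxia and wild-type pups in normoxia. Hyperoxia was 85% oxygen in a chamber from postnatal day 0 to day 3, and Fgf10+/- stands for a heterozygous loss of Fgf10, a growth factor of the lung mesenchyme. The labels name neither the kind of Fgf10 allele nor the litters, so the p-values describe the spread between arrays, which may be technical.

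Elastic fibres give the lung its recoil. Tropoelastin, the soluble product of Eln, is secreted by myofibroblasts and smooth muscle cells, gathered on fibulins, laid on a scaffold of fibrillin microfibrils and made insoluble when lysyl oxidases cross-link its lysines. In the postnatal mouse lung the fibres form at the tips of the growing septa that divide the airspaces. A homogenate mixes all lung cells, so fewer cells of a type and less RNA per cell cannot be told apart.

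All values are the log2 intensities that the authors deposited, and differences are on that scale, so that a difference of 1 is a doubling. Each gene was read by its brightest feature, and levels of different genes are not compared, because each feature has its own brightness. Eln, Fbn1, Efemp2 and Mfap4 each have only 1 feature, so no fainter feature could check their results. Replicate arrays correlated with r between 0.974 and 0.983 across genes, and 4 arrays a group set the precision. The wild-type normoxia array replicate 4 stood apart: 9 skeletal muscle markers averaged 9.18 there against 5.07 to 5.37 in the other 3 arrays of its group, and 6 cartilage markers averaged 8.66 against 3.77 to 4.12. The 9 epithelial markers, among them the surfactant genes Sftpb and Sftpc, averaged 11.97 to 12.52 in all 16 arrays. By the brightest of its 10 features, Fgf10 itself stood at 7.39, 7.96, 7.73 and 7.48 in the hyperoxia arrays labelled Fgf10+/-, against 7.64, 7.80, 7.90 and 8.07 in wild-type hyperoxia. In normoxia it stood at 7.88, 8.29, 8.29 and 8.66 in arrays labelled Fgf10+/-, against 7.83, 8.14, 7.24 and 7.97 in wild type. The arrays labelled Fgf10+/- were not measurably lower in either condition (limma difference -0.21, adjusted p = 0.835 in hyperoxia, and 0.48, adjusted p = 0.334 in normoxia), and the genotype is named here as the labels give it.

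The first question was how 85% oxygen changed these genes. In pups labelled Fgf10+/-, 6 of the 10 genes fell, 2 rose and 2 did not pass the test. In wild-type pups 6 fell, 1 rose and 3 did not pass. A gene was called at a limma adjusted p under 0.05, over all genes tested. For comparison, 23.8% of all genes tested passed in pups labelled Fgf10+/- (10.7% fell and 13.0% rose), and 19.1% passed in wild type (8.75% fell and 10.3% rose). The median difference of the 10 genes was -0.41 in pups labelled Fgf10+/- and -0.55 in wild type, beside 0.03 over all genes in both. Elastin rose in both genotypes, while both fibrillins, Mfap2 and both fibulins fell in both. Lox and Mfap4 passed the test in pups labelled Fgf10+/- and Loxl2 in wild type.

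**Figure D1:**
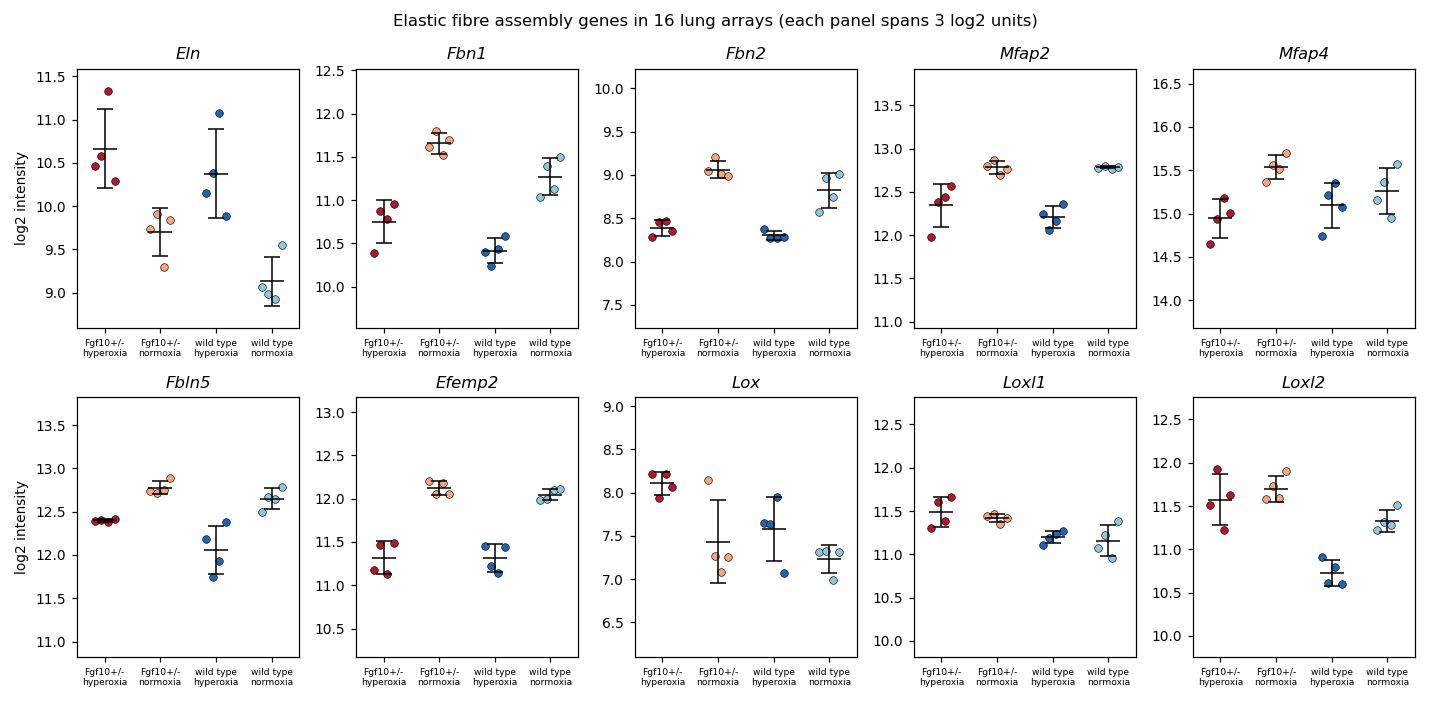
Log2 intensity of each of the 10 genes in every array (points, in replicate order from left to right), with the mean and SD of each group of 4 arrays in black. Each panel spans 3 log2 units, so distances can be compared between panels. Eln is higher in hyperoxia than in normoxia in both genotypes, and Fbn1, Fbn2, Mfap2, Fbln5 and Efemp2 are lower without overlap.

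Eln, which encodes the elastic core of the fibre, stood at 10.46, 10.58, 11.33 and 10.29 in hyperoxia arrays labelled Fgf10+/-, against 9.74, 9.91, 9.30 and 9.84 in normoxia arrays of that genotype. In wild type it stood at 10.15, 10.38, 11.08 and 9.89 in hyperoxia, against 9.06, 8.99, 8.93 and 9.55 in normoxia. Every hyperoxia array lay above every normoxia array of its genotype, as 13.8% of all genes did in pups labelled Fgf10+/- and 13.6% in wild type. The rise was 1.95-fold in pups labelled Fgf10+/- (difference 0.97, SE 0.27, adjusted p = 0.0159) and 2.37-fold in wild type (difference 1.25, SE 0.27, adjusted p = 0.00432). Replicate 3 was the highest hyperoxia array in both genotypes. Without it the rise was 0.74 in pups labelled Fgf10+/- and no longer passed (adjusted p = 0.0514), and 1.01 in wild type (adjusted p = 0.0131). The call in pups labelled Fgf10+/- was also lost without replicate 3 of their normoxia arrays (0.83, adjusted p = 0.0504). Without the wild-type normoxia array that carried muscle and cartilage markers, the wild-type rise was 1.38 (adjusted p = 0.00457).

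By its mean, Eln was ordered from 10.66 ± 0.46 (SD, n = 4) in Fgf10+/- hyperoxia through 10.38 ± 0.51 in wild-type hyperoxia and 9.70 ± 0.28 in Fgf10+/- normoxia to 9.13 ± 0.28 in wild-type normoxia. The genotypes did not differ measurably within hyperoxia (0.29, 95% interval -0.28 to 0.86, adjusted p = 0.821) or within normoxia (0.57, 95% interval 0.00 to 1.14, adjusted p = 0.388). The 5 genes with the profile nearest to Eln over the 16 arrays were 9130015G15Rik, Cnn1, BC048507, Ccdc92 and Ccng1. Nearness was the mean absolute difference between the 2 genes' deviations from their own means, which was 0.26 to 0.28 for these genes and had a median of 0.63 over all genes. Cnn1, which encodes the smooth muscle protein calponin, differed between hyperoxia and normoxia by 0.88 in pups labelled Fgf10+/- and 0.77 in wild type. Ccng1, which encodes cyclin G1 and is a known p53 target, differed by 0.82 and 1.14 in the same order. Because these genes were picked for nearness to Eln on the same arrays, their rise in hyperoxia follows from the choice.

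Of the 4 microfibril genes among the 10, Fbn1, Fbn2 and Mfap2 fell in both genotypes, and Mfap4 fell in pups labelled Fgf10+/-. Fbn1, which encodes the main fibrillin of postnatal tissue, stood at 10.39, 10.88, 10.78 and 10.95 in hyperoxia arrays labelled Fgf10+/-, against 11.61, 11.80, 11.52 and 11.70 in normoxia arrays of that genotype. Wild-type values of Fbn1 were 10.40, 10.24, 10.43 and 10.59 in hyperoxia, against 11.04, 11.40, 11.13 and 11.50 in normoxia. The groups did not overlap in either genotype. Of all genes, 11.1% separated downward in that way in pups labelled Fgf10+/- and 11.2% in wild type. Fbn1 fell 1.87-fold in pups labelled Fgf10+/- (difference -0.91, SE 0.14, adjusted p = 0.000306) and 1.81-fold in wild type (difference -0.85, SE 0.14, adjusted p = 0.000689).

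Fbn2, the fibrillin best known from embryonic microfibrils, stood at 8.28, 8.46, 8.47 and 8.35 in hyperoxia arrays labelled Fgf10+/-, against 9.04, 9.21, 9.01 and 8.99 in normoxia. Wild-type values of Fbn2 were 8.38, 8.27, 8.27 and 8.28 in hyperoxia, against 8.57, 8.96, 8.75 and 9.01 in normoxia. Again no hyperoxia array reached the normoxia range of its genotype. The differences were -0.67 (SE 0.10, adjusted p = 0.000306) in pups labelled Fgf10+/- and -0.52 (SE 0.10, adjusted p = 0.0026) in wild type. A fainter Fbn2 feature, fitted on its own, gave -0.95 (SE 0.15, adjusted p = 0.000452) in pups labelled Fgf10+/- and -0.93 (SE 0.15, adjusted p = 0.000754) in wild type, so both features fell in both genotypes.

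Mfap2, a small glycoprotein that binds fibrillin along the microfibril, stood at 11.98, 12.38, 12.44 and 12.57 in hyperoxia arrays labelled Fgf10+/-, against 12.80, 12.87, 12.70 and 12.76 in normoxia. Wild-type values of Mfap2 were 12.25, 12.06, 12.16 and 12.36 in hyperoxia, against 12.78, 12.80, 12.77 and 12.79 in normoxia. The normoxia arrays lay close together in both genotypes and above all their hyperoxia arrays. The differences were -0.44 (SE 0.11, adjusted p = 0.0118) in pups labelled Fgf10+/- and -0.58 (SE 0.11, adjusted p = 0.00257) in wild type. In a fit of only the 8 arrays labelled Fgf10+/- the call there was lost (adjusted p = 0.0691). The fainter Mfap2 feature gave -1.10 (SE 0.13, adjusted p = 5.69e-05) in pups labelled Fgf10+/- and -1.26 (SE 0.13, adjusted p = 3.22e-05) in wild type.

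Mfap4, which binds tropoelastin and fibrillin, stood at 14.65, 14.94, 15.18 and 15.01 in hyperoxia arrays labelled Fgf10+/-, against 15.37, 15.56, 15.52 and 15.70 in normoxia. The wild-type arrays stood at 14.74, 15.21, 15.35 and 15.08 in hyperoxia, against 15.16, 15.37, 14.95 and 15.57 in normoxia. The groups were apart in pups labelled Fgf10+/- and overlapped in wild type. The difference was -0.59 (SE 0.16, adjusted p = 0.0149) in pups labelled Fgf10+/-, a call lost without replicate 1 of their hyperoxia arrays (-0.49, adjusted p = 0.0507), and -0.17 (SE 0.16, adjusted p = 0.537) in wild type. The interaction of genotype and oxygen did not pass for Mfap4 (-0.42, SE 0.23, adjusted p = 0.783). The highest values approach the maximum of the arrays, 15.99.

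Fbln5 and Efemp2 encode the fibulins that bring tropoelastin to the microfibril and to the cross-linking enzymes, and both fell in both genotypes. Other fibulin genes did not all pass: Fbln2 stood at 0.07 in pups labelled Fgf10+/- (adjusted p = 0.794) and 0.09 in wild type (adjusted p = 0.745), and Fbln1 at -0.15 (adjusted p = 0.606) and -0.27 (adjusted p = 0.327). Fbln7 stood at -0.88 (adjusted p = 0.0604) and -0.72 (adjusted p = 0.14), and fell when averaged over both genotypes (-0.80, adjusted p = 0.013). The fibulin-3 gene Efemp1 fell in both genotypes (adjusted p = 0.0265 and 0.0292). Efemp2, which encodes fibulin-4 and is required for elastic fibre assembly in mice, stood at 11.18, 11.46, 11.13 and 11.49 in hyperoxia arrays labelled Fgf10+/-, against 12.21, 12.06, 12.18 and 12.05 in normoxia. The wild-type values were 11.45, 11.22, 11.14 and 11.44 in hyperoxia, against 11.98, 12.00, 12.10 and 12.11 in normoxia. In each genotype the gap between the groups was wider than the spread within either. Efemp2 fell 1.75-fold in pups labelled Fgf10+/- (difference -0.81, SE 0.11, adjusted p = 0.000119) and 1.66-fold in wild type (difference -0.73, SE 0.11, adjusted p = 0.00034).

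Fbln5, which encodes fibulin-5, stood at 12.39, 12.41, 12.38 and 12.42 in hyperoxia arrays labelled Fgf10+/-, against 12.74, 12.72, 12.75 and 12.89 in normoxia. Among wild-type arrays it was at 12.19, 11.75, 11.93 and 12.38 in hyperoxia, against 12.50, 12.67, 12.65 and 12.79 in normoxia. The groups were apart in both genotypes, with a wider spread in wild-type hyperoxia. The difference was -0.38 (SE 0.12, adjusted p = 0.0334) in pups labelled Fgf10+/-, and leaving out any 1 of the 8 arrays lost that call, with adjusted p between 0.0519 and 0.0904. In wild type it was -0.59 (SE 0.12, adjusted p = 0.00314), and leaving out any 1 array kept the call. A fainter Fbln5 feature, with a mean of 5.06 beside an array median of 4.50, gave -0.37 (SE 0.35, adjusted p = 0.513) in pups labelled Fgf10+/- and -0.43 (SE 0.35, adjusted p = 0.459) in wild type. As a mean of its features, Fbln5 passed in neither genotype (limma adjusted p = 0.201 in pups labelled Fgf10+/- and 0.0893 in wild type).

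Promoter windows of 4 of the 5 genes that fell in both genotypes could be matched in RefSeq (GRCm38.p6), and they are shown because these genes moved together. Each runs from 250 bases before to 50 bases after an annotated start, 5′ to 3′ on the strand of the gene, and is the first window listed where the table holds several. Capitals mark the GC box GGGCGG on either strand.
Fbn1 (chr2:125506389-125506688, minus strand): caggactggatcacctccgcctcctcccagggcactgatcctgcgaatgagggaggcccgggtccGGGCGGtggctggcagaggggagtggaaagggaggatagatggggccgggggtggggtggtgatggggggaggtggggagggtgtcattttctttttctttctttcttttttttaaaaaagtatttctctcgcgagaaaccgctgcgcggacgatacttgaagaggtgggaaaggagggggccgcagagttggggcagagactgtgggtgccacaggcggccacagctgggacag
Mfap2 (chr4:141010431-141010730, plus strand): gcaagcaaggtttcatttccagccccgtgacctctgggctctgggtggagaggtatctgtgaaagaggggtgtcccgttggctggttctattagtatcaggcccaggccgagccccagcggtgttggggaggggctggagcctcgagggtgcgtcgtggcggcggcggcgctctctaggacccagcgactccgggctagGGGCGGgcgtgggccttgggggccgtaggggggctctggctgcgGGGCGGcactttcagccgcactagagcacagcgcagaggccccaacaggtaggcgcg
Efemp2 (chr19:5473696-5473995, plus strand): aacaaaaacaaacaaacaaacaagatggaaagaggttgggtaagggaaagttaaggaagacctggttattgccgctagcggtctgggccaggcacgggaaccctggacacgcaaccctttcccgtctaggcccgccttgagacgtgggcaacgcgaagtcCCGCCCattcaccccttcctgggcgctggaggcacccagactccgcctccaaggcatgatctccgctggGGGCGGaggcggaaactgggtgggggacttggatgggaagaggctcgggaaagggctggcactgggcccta
Fbln5 (chr12:101819070-101819369, minus strand): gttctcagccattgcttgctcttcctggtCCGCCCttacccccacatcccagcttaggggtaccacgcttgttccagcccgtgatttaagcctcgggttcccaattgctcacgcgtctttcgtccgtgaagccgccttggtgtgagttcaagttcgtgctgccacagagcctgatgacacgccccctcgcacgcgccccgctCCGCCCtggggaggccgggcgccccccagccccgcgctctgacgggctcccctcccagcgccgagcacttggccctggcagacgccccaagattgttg

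All 4 windows held the GC box, once in Fbn1 (beginning at -185 from the start) and at 2 places in Mfap2 (-51 and -7), Efemp2 (-90 and -21) and Fbln5 (-221 and -48). Of all 32851 windows of that length in the table, 35.7% held it. The 4 windows were 60.3% to 68.0% G or C, beside a median of 52.7% over all windows. None of the 4 held TATAAA (the TATA box, in 13.6% of all windows), TGANTCA (the AP-1 site, 7.81%) or TGACNNNGC (the antioxidant response element, 12.4%), searched on both strands. CAGAC, the core of a SMAD element, was in Efemp2 at 2 places and in Fbln5 at 1, and is in 49.6% of all windows. ACGTG, the core of the hypoxia response element, was in Efemp2 (19.6% of all windows). The letters of ACGTG and CAGAC do not overlap those of the GC box. A match is a description of the letters and no evidence of binding.

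The lysyl oxidases, the copper enzymes that cross-link elastin and collagen, did not pass in 1 common direction. Lox stood at 8.21, 7.94, 8.22 and 8.06 in hyperoxia arrays labelled Fgf10+/-, against 8.14, 7.27, 7.08 and 7.25 in normoxia. Wild-type values of Lox were 7.65, 7.64, 7.95 and 7.07 in hyperoxia, against 7.31, 7.32, 6.99 and 7.31 in normoxia. In both genotypes 1 array made the groups overlap: replicate 1 of Fgf10+/- normoxia, which was as high as the hyperoxia arrays, and replicate 4 of wild-type hyperoxia, which was low. The difference was 0.67 (SE 0.22, adjusted p = 0.0362) in pups labelled Fgf10+/- and 0.34 (SE 0.22, adjusted p = 0.319) in wild type. In pups labelled Fgf10+/- the call was lost when any of 6 single arrays was omitted (adjusted p up to 0.106), while without replicate 1 of their normoxia arrays the rise was 0.91 (adjusted p = 0.00214). A fainter Lox feature, also high in that normoxia array (6.93 against 5.95 to 6.54), gave 0.97 (SE 0.19, adjusted p = 0.00202) in pups labelled Fgf10+/- and 0.26 (SE 0.19, adjusted p = 0.408) in wild type. The interaction did not pass for either feature (0.33, adjusted p = 0.884, and 0.71, adjusted p = 0.732).

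Loxl1, which adult mice need for the renewal of elastic fibres, was read by 2 features that disagreed. By the brighter feature it stood at 11.30, 11.61, 11.38 and 11.66 in hyperoxia arrays labelled Fgf10+/-, against 11.44, 11.47, 11.35 and 11.42 in normoxia. Wild-type values of that feature were 11.11, 11.19, 11.23 and 11.27 in hyperoxia, against 11.07, 11.22, 10.96 and 11.38 in normoxia. The groups overlapped, with differences of 0.07 (95% interval -0.16 to 0.30) and 0.04 (95% interval -0.19 to 0.27), and neither passed. By the fainter feature it stood at 8.81, 9.49, 9.04 and 9.41 in hyperoxia arrays labelled Fgf10+/-, against 9.81, 9.76, 9.80 and 9.59 in normoxia, and at 8.54, 8.74, 8.96 and 8.85 in wild-type hyperoxia, against 9.27, 9.65, 9.51 and 9.47 in wild-type normoxia. By that feature the groups were apart in both genotypes and Loxl1 fell, with differences of -0.55 (SE 0.15, adjusted p = 0.0152) in pups labelled Fgf10+/- and -0.70 (SE 0.15, adjusted p = 0.00456) in wild type. The sources used here do not place the features along the transcripts, so the direction of Loxl1 is uncertain.

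Loxl2, a lysyl oxidase best known for collagen IV, stood at 11.51, 11.93, 11.22 and 11.63 in hyperoxia arrays labelled Fgf10+/-, against 11.58, 11.73, 11.59 and 11.90 in normoxia. In wild type it stood at 10.91, 10.61, 10.79 and 10.60 in hyperoxia, against 11.22, 11.31, 11.28 and 11.51 in normoxia. The groups overlapped in pups labelled Fgf10+/- and were apart in wild type. The difference was -0.13 (SE 0.14, adjusted p = 0.581) in pups labelled Fgf10+/- and -0.60 (SE 0.14, adjusted p = 0.00727) in wild type. The difference between these responses did not pass (0.48, SE 0.20, adjusted p = 0.734). The faintest of the 3 Loxl2 features fell in both genotypes, with differences of -0.78 (SE 0.15, adjusted p = 0.00183) in pups labelled Fgf10+/- and -0.81 (SE 0.15, adjusted p = 0.00188) in wild type. The feature between them passed in neither (-0.18, adjusted p = 0.508, and -0.33, adjusted p = 0.195). The wild-type fall was called by 2 of the 3 features.

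**Figure D2:**
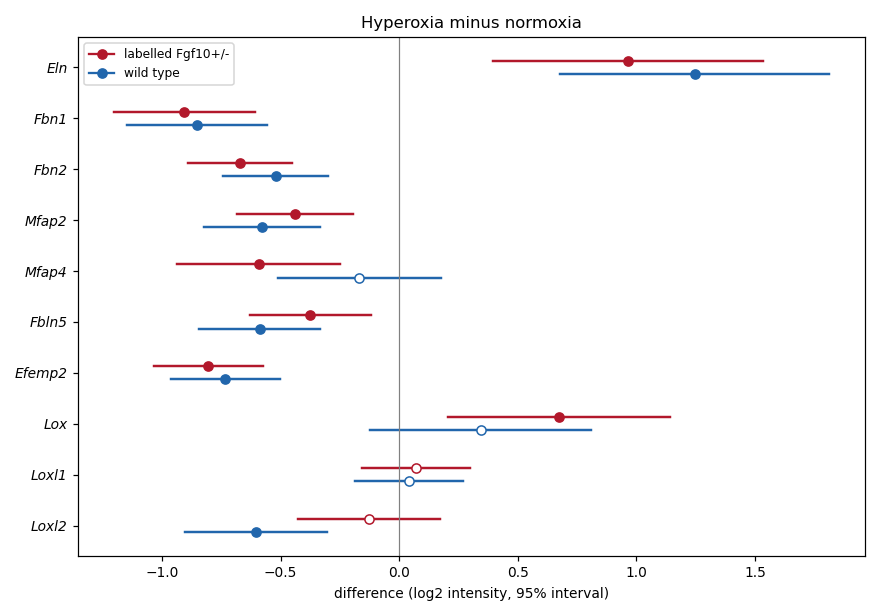
Difference between hyperoxia and normoxia for each gene (log2 intensity, brightest feature) with its unadjusted 95% interval from the limma fit, in pups labelled Fgf10+/- (red) and wild type (blue). Filled points passed at an adjusted p under 0.05. Eln stands at 0.97 and 1.25, and Fbn1, Fbn2, Mfap2, Fbln5 and Efemp2 lie below 0 in both genotypes.

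**Figure D3:**
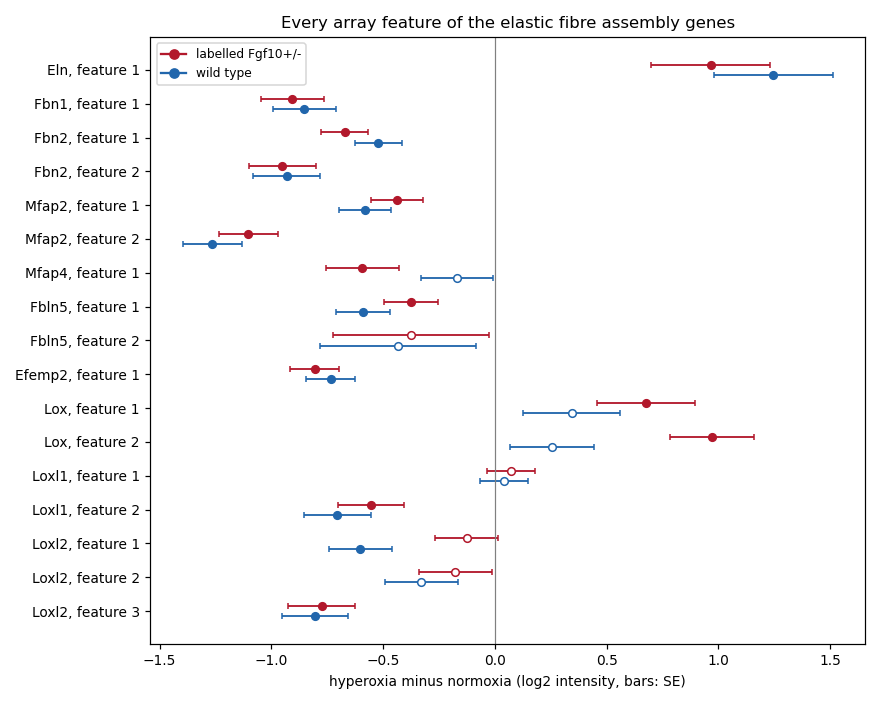
Difference between hyperoxia and normoxia for every one of the 17 features (log2 intensity, bars are SE), numbered from the brightest within each gene, in pups labelled Fgf10+/- (red) and wild type (blue). Filled points passed at an adjusted p under 0.05 over all kept features. The 2 features of Loxl1 stand apart, at 0.07 and -0.55 in pups labelled Fgf10+/-, and the second feature of Mfap2 shows larger falls than the first (-1.10 and -0.44 in pups labelled Fgf10+/-).

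When every kept feature was fitted on its own, 10.1% of all features fell and 11.6% rose in pups labelled Fgf10+/-, and 8.13% fell and 8.81% rose in wild type. Averaged over both genotypes, 7 of the 10 genes fell and 2 rose, beside 33.4% of all genes past the test (15.0% fell and 18.4% rose), and only Loxl1 did not pass by its brighter feature. The averaged differences were 1.11 for Eln (SE 0.19, adjusted p = 0.000357), 0.51 for Lox (SE 0.15, adjusted p = 0.0193), -0.36 for Loxl2 (SE 0.10, adjusted p = 0.0101) and -0.38 for Mfap4 (SE 0.11, adjusted p = 0.0179). None of these 9 calls was lost when any 1 of the 16 arrays was left out. With the second brightest feature in place of the brightest, the averaged calls of Fbln5 (-0.40, adjusted p = 0.244) and Loxl2 (-0.25, adjusted p = 0.109) were lost. Of all kept features, fitted on their own, 14.5% fell and 16.7% rose in this averaged comparison, in which the fainter Loxl1 feature fell by 0.63 (SE 0.10, adjusted p = 0.000343). Without the wild-type normoxia array replicate 4, the wild-type count stayed at 7 calls, 6 lower and 1 higher.

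Of 22 further elastic fibre and microfibril genes, 15 did not pass in pups labelled Fgf10+/- and 17 did not pass in wild type. In pups labelled Fgf10+/- 4 fell and 3 rose (median -0.14), where 10.7% of all genes fell and 13.0% rose. In wild type 3 fell and 2 rose (median -0.24), where 8.75% of all genes fell and 10.3% rose, and the share past the test was near that over all genes, 19.1%. Adamtsl4 and Adamtsl2, which encode fibrillin-binding proteins of the ADAMTS-like family, rose in both genotypes: Adamtsl4 by 1.27 (SE 0.13) in pups labelled Fgf10+/- and 0.98 (SE 0.13) in wild type, Adamtsl2 by 1.25 (SE 0.19) and 1.09 (SE 0.19). Bmp1, the protease that releases the propeptide of lysyl oxidase, fell by 0.73 (SE 0.09) in pups labelled Fgf10+/- and by 0.56 (SE 0.09) in wild type. Efemp1, which encodes fibulin-3, fell by 0.78 (SE 0.24) and 0.79 (SE 0.24). Adamts17, a metalloprotease linked to fibrillin, fell in pups labelled Fgf10+/- (-0.58, SE 0.14). Adamtsl2 was also higher in pups labelled Fgf10+/- than in wild type in hyperoxia (0.98, SE 0.19, adjusted p = 0.0389). Adjusted p-values of the named hyperoxia calls lay between 1.89e-05, for Adamtsl4 in pups labelled Fgf10+/-, and 0.0292, for Efemp1 in wild type.

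Markers of alveolar myofibroblasts and smooth muscle moved in both directions, while fibroblast markers fell or did not pass. Of 12 markers of alveolar myofibroblasts and smooth muscle, 3 fell and 2 rose in pups labelled Fgf10+/-, and 4 fell and 1 rose in wild type. Over all genes, 10.7% fell and 13.0% rose in pups labelled Fgf10+/-, and 8.75% fell and 10.3% rose in wild type. List counts were not tested against those shares, and in lists of 5 to 12 genes a count of 1 or 2 is too small to interpret. Pdgfra, the receptor that marks myofibroblast progenitors, fell by 1.49 (SE 0.19, adjusted p = 8.51e-05) in pups labelled Fgf10+/- and by 1.45 (SE 0.19, adjusted p = 0.000148) in wild type. Hhip fell by 0.73 and 0.47 and Pdlim3 by 1.01 and 0.69, in the same order, while Cnn1 rose in both. Myh11, a smooth muscle myosin, fell in wild type (-0.59, SE 0.13, adjusted p = 0.00497). The mean of the 12 markers was 10.06 to 10.36 in hyperoxia arrays labelled Fgf10+/-, against 10.26 to 10.52 in normoxia, and 10.06 to 10.17 in wild-type hyperoxia, against 10.15 to 10.44 in normoxia. Of 11 fibroblast markers, 4 fell in pups labelled Fgf10+/- and 2 in wild type, and none rose. Their mean was 10.11 to 10.60 in hyperoxia arrays labelled Fgf10+/-, against 10.75 to 10.88 in normoxia, and 10.05 to 10.41 in wild-type hyperoxia, against 10.38 to 10.80 in normoxia. Lum and Col1a2, a proteoglycan and a collagen I chain, fell in both genotypes, and Dpt (-1.34, adjusted p = 0.00497) and Meox2 (-0.56, adjusted p = 0.0112) fell in pups labelled Fgf10+/-. Of 5 mesothelial markers, 1 rose and 1 fell in pups labelled Fgf10+/- and 1 fell in wild type, with means of 6.48 to 8.56 in hyperoxia arrays labelled Fgf10+/-, against 7.09 to 8.94 in normoxia, and 6.28 to 7.14 in wild-type hyperoxia, against 7.25 to 8.03 in normoxia. Of 6 endothelial markers, 3 fell in pups labelled Fgf10+/- and 2 in wild type. Of the 9 epithelial markers, 3 rose in pups labelled Fgf10+/- and 2 in wild type, with means of 12.28 to 12.36 in hyperoxia arrays labelled Fgf10+/-, against 11.97 to 12.04 in normoxia, and 12.43 to 12.52 in wild-type hyperoxia, against 12.23 to 12.38 in normoxia. The part of these cell types in the changes of the elastic fibre genes was not tested.

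The next question was whether the genotypes differed. In hyperoxia 1 of the 10 genes, Loxl2, was higher in pups labelled Fgf10+/- than in wild type, and none was lower, beside 0.412% of all genes past the test (0.293% higher and 0.119% lower). Its arrays, given above, did not overlap between the genotypes (lowest 11.22 in Fgf10+/- hyperoxia, highest 10.91 in wild-type hyperoxia). The difference was 0.85, or 1.80-fold (SE 0.14, 95% interval 0.55 to 1.15, adjusted p = 0.0199). Of all genes, 3.13% separated upward in that way and 2.85% downward, and Fbln5 and Loxl1 also separated upward, with differences of 0.34 (adjusted p = 0.368) and 0.29 (adjusted p = 0.395). The Loxl2 call was lost in a fit of only the groups compared (adjusted p = 0.225) and when any of 5 single arrays was omitted, namely replicates 2 and 4 of Fgf10+/- hyperoxia and replicates 2, 3 and 4 of wild-type hyperoxia (adjusted p 0.0574 to 0.0739). The 2 fainter Loxl2 features gave 0.58 (adjusted p = 0.234) and 0.41 (adjusted p = 0.41), in a fit where 0.229% of all kept features rose and 0.0720% fell. The fainter Lox feature gave 0.94, with an adjusted p of 0.0554 in that fit and of 0.0478 when it stood for Lox among the genes. In hyperoxia 5 of the 10 genes, beside 1818 of all 20166, had an unadjusted p under 0.05. In normoxia none of the 10 genes passed by limma, beside 0.719% of all genes past the test (0.114% higher and 0.605% lower), and 5 of the 10, beside 2593 of all 20166, had an unadjusted p under 0.05. Loxl2 was again higher without overlap in normoxia (lowest 11.58 in arrays labelled Fgf10+/-, highest 11.51 in wild type), with a difference of 0.37 (SE 0.14, adjusted p = 0.263), and of 0.43 (adjusted p = 0.188) without the wild-type normoxia array replicate 4. Fbn1 did not overlap either in normoxia, with a difference of 0.39 (SE 0.14, adjusted p = 0.234). Of all genes, 3.02% separated upward and 4.51% downward. Of all kept features fitted on their own, 0.0819% rose and 0.485% fell, with none of the 17 among them.

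Averaged over both oxygen levels, Loxl2 was higher in pups labelled Fgf10+/- by 0.61 (SE 0.10, adjusted p = 0.00523), beside 2.25% of all genes past the test (0.922% higher and 1.32% lower). Leaving out any 1 of the 16 arrays kept that call. By features fitted on their own, of which 0.750% rose and 1.05% fell, the second feature of Loxl2 was higher by 0.51 (SE 0.12, adjusted p = 0.0387) and the fainter feature of Lox by 0.58 (SE 0.13, adjusted p = 0.0397). The third feature of Loxl2 did not pass (0.40, SE 0.10, adjusted p = 0.0767). All 10 genes had a positive averaged difference, beside 49.1% of all genes, with a median of 0.25 beside -0.00. The 9 genes other than Loxl2 did not pass. The 10 genes can shift together from array to array, so their signs are not 10 independent observations. Of the 22 further elastic fibre and microfibril genes, 19 were also positive (median 0.16) and 3 passed as higher. Fbn1 stood at 0.36 (SE 0.10, adjusted p = 0.0765) and Loxl1 at 0.28 (SE 0.08, adjusted p = 0.0782), and both passed without the wild-type normoxia array replicate 4 (adjusted p = 0.0468 and 0.0341). Fbn1 also passed without replicate 1 of Fgf10+/- hyperoxia (adjusted p = 0.024). The fainter Loxl1 feature gave 0.34 (adjusted p = 0.135). The averaged difference was 0.43 (SE 0.19, adjusted p = 0.309) for Eln, 0.36 (SE 0.15, adjusted p = 0.29) for Lox and 0.23 (SE 0.08, adjusted p = 0.203) for Fbln5. Some cell type markers also differed between the genotypes. Of the 11 fibroblast markers, 10 had a positive averaged difference (median 0.25), and Dcn, a proteoglycan, rose by 0.65 (SE 0.14, adjusted p = 0.0277). All 5 mesothelial markers were positive (median 0.62) and none passed. Of the 9 epithelial markers, 0 were positive (median -0.21) and 2 fell, Abca3 (-0.62, adjusted p = 0.000539) and Cdh1 (-0.30, adjusted p = 0.043), with means of 11.97 to 12.04 in Fgf10+/- normoxia, against 12.23 to 12.38 in wild-type normoxia. Of the 7 heart muscle markers, 1 was positive (median -0.37) and none passed. The part of these cell types in the difference of the elastic fibre genes was not tested.

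**Figure D4:**
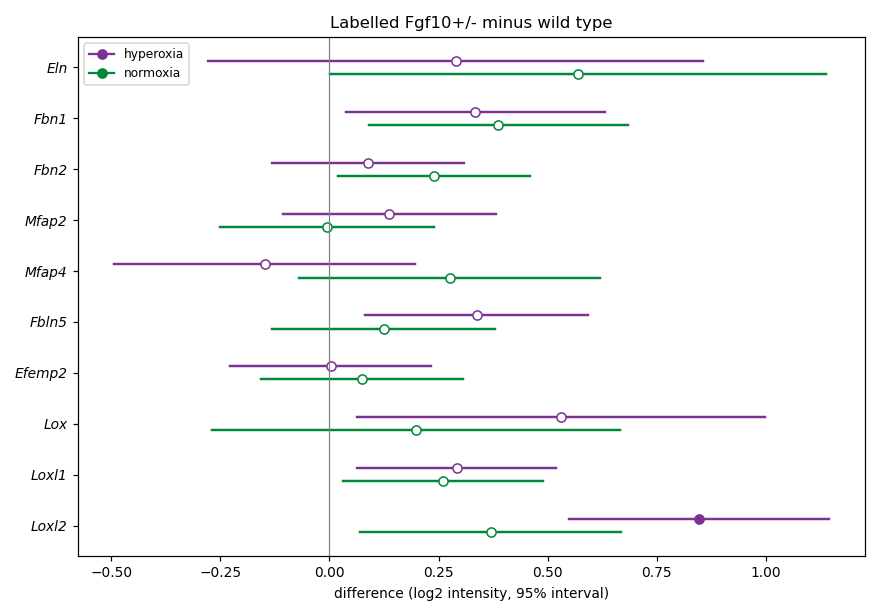
Difference between pups labelled Fgf10+/- and wild type for each gene (log2 intensity, brightest feature) with its unadjusted 95% interval from the limma fit, in hyperoxia (purple) and normoxia (green). The filled point, Loxl2 in hyperoxia at 0.85, passed at an adjusted p under 0.05, and the open points did not.

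The last question was whether the response to oxygen depended on genotype. By limma 0 of the 10 genes and 0 of 20166 passed the test of the interaction (0%), with 1 of the 10 and 1334 of all genes at an unadjusted p under 0.05. The interaction was 0.48 (95% interval 0.05 to 0.90) for Loxl2, -0.42 (95% interval -0.91 to 0.06) for Mfap4, 0.33 (95% interval -0.33 to 0.99) for Lox and -0.28 (95% interval -1.08 to 0.52) for Eln. These intervals leave room for differences as large as the responses themselves, so the calls that appear in only 1 genotype are not shown to differ between them.

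Arrays of a group also differed from each other across these genes. In the wild-type normoxia array replicate 4, which carried the muscle and cartilage markers, 10 of the 10 genes lay above the mean of their group, by 0.42 for Eln and 0.30 for Mfap4. In replicates 1 and 3 of the same group only 1 of the 10 did, and in replicate 2 it was 7. Only 1 of the 10 also lay above in replicate 3 of Fgf10+/- normoxia. In replicate 1 of Fgf10+/- hyperoxia, 1 of the 10 did, with Fbn1 and Mfap2 each 0.36 below. Eln was 0.66 above its group mean in replicate 3 of Fgf10+/- hyperoxia and 0.70 above in replicate 3 of wild-type hyperoxia. The part of tissue sampling in these shifts was not tested.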

How the data were processed

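The authors deposited a table of log2 intensities for 62976 features on 16 arrays. Per the labels' protocols, RNA came from a miRNeasy kit and Cy3-labelled copies were hybridised. Normalization between arrays was inferred from array medians within 0.00068 of each other. Equal medians alone do not tell quantile normalization from scaling to a common median. The sources used here state no background correction, slide or scan date. The platform annotation names 1 gene for 31465 features and none for 31511. Symbols were updated through RefSeq accessions for 29036 features.

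Features without missing values that lay above the 25th percentile of their array in at least 4 of 16 arrays were kept, and the brightest kept feature stood for a gene. One linear model with a mean per group was fitted to all 20166 genes in limma 3.58.1 (R 4.3.3; 12 residual and 2.129 prior degrees of freedom), with the Benjamini-Hochberg adjustment over all genes of a comparison. The fit was also run on simulated data with independent noise for each gene, which does not copy shifts shared between genes. Averaged differences, the interaction and 95% intervals come from the same model. Alternatives were other filters, scaling, variance options, array weights, feature choices, a replicate block, a fold minimum of 1.5 and each array left out. The use of fainter features was chosen after seeing the data. Replicate numbers were not treated as pairs: residuals of arrays with the same number correlated at -0.0293 to 0.0869.

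The genes and lists were chosen with earlier results of these data known. The text names the 10 genes, Fgf10, the 5 genes nearest to Eln, and, in each comparison, up to 4 genes with the smallest p among those of a list that passed. Fbln1, Fbln2 and Fbln7 are named as further fibulins and were chosen after their values were seen.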

Additional observations from a re-analysis of the deposited data

Results flagged for a closer look

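In groups of 4 arrays, an array was singled out when its gap to the nearest other array took up more of the range of its group than Dixon's 95% critical share. Of 40 groups (10 genes in 4 groups), 3 met this, and chance alone gives about 1 in 20. Lox stood at 6.99 in replicate 3 of wild-type normoxia, while the nearest of the other 3 arrays stood at 7.31. Fbn2 stood at 8.38 in replicate 1 of wild-type hyperoxia, with the nearest at 8.28, in a group whose whole range is small. Fbln5 stood at 12.89 in replicate 4 of Fgf10+/- normoxia, with the nearest at 12.75.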

How the results depend on the processing

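The count of the 10 members past the threshold in hyperoxia was 8 in pups labelled Fgf10+/-, and 5 to 7 when 1 array was left out. It fell to 5 without replicate 1 or 3 of Fgf10+/- hyperoxia or replicate 3 of Fgf10+/- normoxia. In wild type it was 7 in every fit that left out 1 array, and averaged over both genotypes 9, but 4 with a fold minimum of 1.5. That minimum also removed Fbln5 (1.30-fold) and Mfap2 (1.35-fold) in pups labelled Fgf10+/-. In wild type it removed Fbn2 (1.44-fold) and Mfap2 (1.495-fold). Between the genotypes in hyperoxia the count was 1, with 0 to 1 when 1 array was left out, and 0 in a fit of only the groups compared. Averaged over oxygen levels it was 1, and 3 with the filter at the 50th percentile, with trend and robust options or with array weights, 2 with the second brightest feature of each member, and 1 to 3 when 1 array was left out (3 without replicate 4 of wild-type normoxia and 2 without replicate 1 of Fgf10+/- hyperoxia). With the replicate number as a block it was 2, and the other counts of members did not change. Between the genotypes in normoxia, and for the interaction, the count was 0 in every fit run. Counts over all genes under these alternatives are not given here, so a changed count may not be particular to the 10 genes. In 6 of 16 pairings an array correlated best with the array of its own number.

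Loxl1 changed direction with the feature used: as a mean of its features the hyperoxia difference was -0.24 in pups labelled Fgf10+/-, -0.33 in wild type and -0.29 averaged, and by the fainter feature -0.55, -0.70 and -0.63. Over fits that left out 1 array, the brighter feature gave -0.025 to 0.114 in wild type, the lowest without replicate 3 of wild-type normoxia. Likewise the difference of Lox between the genotypes in normoxia was -0.0364 to 0.318, the lowest without replicate 1 of Fgf10+/- normoxia. The cause was not tested. A common 75th percentile changed no call of the 10 genes in the hyperoxia comparisons. This check is weak, because the deposited arrays already had nearly equal medians.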

Other observations

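Genes that break down elastic fibres, and their inhibitors, were measured on the same arrays. Of 11 proteases that can degrade elastin or its matrix, 2 rose and 1 fell in hyperoxia in pups labelled Fgf10+/-, and 1 rose and 2 fell in wild type. Over all genes, 13.0% rose and 10.7% fell in pups labelled Fgf10+/-, and 10.3% rose and 8.75% fell in wild type. The protease counts were near these shares. Ctsl, which encodes the lysosomal protease cathepsin L, rose by 0.59 (SE 0.08, adjusted p = 0.000101) in pups labelled Fgf10+/- and by 0.35 (SE 0.08, adjusted p = 0.00564) in wild type. The membrane metalloprotease gene Mmp14 fell by 0.65 (SE 0.13, adjusted p = 0.00243) and by 0.55 (SE 0.13, adjusted p = 0.00833). Elane, the gene of neutrophil elastase, rose in pups labelled Fgf10+/- (0.77, SE 0.20, adjusted p = 0.0123). Mmp2, a gelatinase gene, fell in wild type (-0.47, SE 0.11, adjusted p = 0.00762) and was higher in pups labelled Fgf10+/- than in wild type in hyperoxia (0.70, SE 0.11, adjusted p = 0.0169).

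Of 7 inhibitors of elastases and metalloproteinases, 5 rose in hyperoxia in pups labelled Fgf10+/- (median 0.50) and 2 in wild type (median 0.23), and none fell. Over all genes, 13.0% rose in pups labelled Fgf10+/- and 10.3% in wild type, with a median difference of 0.03 in both. Slpi, an inhibitor of neutrophil elastase, rose by 1.92 (SE 0.39, adjusted p = 0.00236) in pups labelled Fgf10+/- and by 1.53 (SE 0.39, adjusted p = 0.0121) in wild type. Wfdc2, a relative of Slpi, rose by 0.85 (SE 0.14, adjusted p = 0.00059) and by 0.49 (SE 0.14, adjusted p = 0.0251). Cst3, which encodes cystatin C, an inhibitor of cysteine cathepsins, rose in pups labelled Fgf10+/- by 0.33 (SE 0.10, adjusted p = 0.0247).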
